A study of Mus musculus with 8 samples.

Results

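Ifitm1, Ifitm2 and Ifitm3 encode interferon-induced transmembrane proteins, and they are 3 of the 55487 genes listed for 8 bulk RNA-seq libraries of mouse haematopoietic stem cells (HSCs). The members were taken by gene symbol. They were chosen because an earlier look at the same libraries had put Ifitm3 among the higher genes of the miR652-KD group, so their difference between groups is described here and carries no test.

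The libraries came from sorted HSCs and were made with Smart-seq2, which copies polyadenylated RNA of small numbers of cells and amplifies it as full-length cDNA. There are 4 libraries labelled miR652-KD, in which the microRNA miR-652 was knocked down, and 4 labelled NTC, a non-target control. The labels name cell type and this genotype as the only attributes of both groups. They give neither the way the knockdown was delivered nor the surface markers of the sort, and nothing on the strain, age or number of mice. Whether libraries came from separate animals is not said either, so a p-value here measures library-to-library spread that may be technical.

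IFITM proteins are short membrane proteins of the plasma membrane, endosomes and lysosomes. They hinder the fusion of enveloped viruses with the membranes of the cell, and IFITM3 acts mainly in endosomes. Type I and type II interferons raise their transcription through STAT and IRF factors, and stem cells of several tissues are known to keep a set of interferon-stimulated genes, IFITM genes among them, switched on without infection. In the mouse, Ifitm1 and Ifitm3 are also known for expression in primordial germ cells, where they were named Fragilis genes.

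The 3 genes lie within one cluster on chromosome 7 (mm10). Ifitm2 (ENSMUSG00000060591.9) lies at 140954837 to 140955987 on the minus strand. Ifitm1 (ENSMUSG00000025491.14) lies at 140967221 to 140969825 on the plus strand, and Ifitm3 (ENSMUSG00000025492.6) at 141009586 to 141010770 on the minus strand. GENCODE M21 gives Ifitm1 3 transcripts of 560, 736 and 882 bases, whose exons together cover 1094 bases. It gives Ifitm2 1 transcript of 655 bases and Ifitm3 1 transcript of 678 bases. The coding sequences have 318 bases in Ifitm1, 432 in Ifitm2 and 411 in Ifitm3. Over the aligned bases the coding sequence of Ifitm1 was 82.1% identical to that of Ifitm2 and 82.1% to that of Ifitm3, and those of Ifitm2 and Ifitm3 were 80.9% identical. Ifitm7 on chromosome 16 was closer to Ifitm1 than either, at 89.3%.

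The promoters are shown because the members are known as interferon targets. Each stretch of 300 bases is from RefSeq (GRCm38.p6), runs 5′ to 3′ on the strand of the gene and holds 250 bases before the RefSeq start and 50 after. Capitals mark matches to the core of the interferon-stimulated response element (ISRE), searched on both strands as GAAANNGAAA. The windows are chr7:140967826-140968125 on the plus strand for Ifitm1, chr7:140955912-140956211 on the minus strand for Ifitm2 and chr7:141010695-141010994 on the minus strand for Ifitm3.
Ifitm1: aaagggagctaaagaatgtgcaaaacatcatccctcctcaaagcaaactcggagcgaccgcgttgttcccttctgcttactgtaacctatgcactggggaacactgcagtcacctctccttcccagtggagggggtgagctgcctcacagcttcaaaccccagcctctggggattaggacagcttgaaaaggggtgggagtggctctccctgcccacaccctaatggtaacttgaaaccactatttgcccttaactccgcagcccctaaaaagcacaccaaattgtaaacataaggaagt
Ifitm2: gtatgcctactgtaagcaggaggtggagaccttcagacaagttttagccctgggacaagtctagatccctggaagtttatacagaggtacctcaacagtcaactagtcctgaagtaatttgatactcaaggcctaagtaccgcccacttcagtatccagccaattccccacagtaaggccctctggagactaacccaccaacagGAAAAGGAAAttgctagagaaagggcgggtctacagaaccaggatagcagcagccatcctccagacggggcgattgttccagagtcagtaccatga
Ifitm3: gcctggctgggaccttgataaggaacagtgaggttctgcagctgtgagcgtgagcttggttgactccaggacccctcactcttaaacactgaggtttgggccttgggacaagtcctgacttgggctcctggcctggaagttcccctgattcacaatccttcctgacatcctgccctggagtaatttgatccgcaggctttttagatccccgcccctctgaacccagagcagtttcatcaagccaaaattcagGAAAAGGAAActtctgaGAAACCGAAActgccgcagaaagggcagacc
The window of Ifitm3 held 2 ISRE matches, at bases 2 to 11 and 19 to 28 counted from the RefSeq start as base 0. Ifitm2 held 1 match, at bases -46 to -37, with the same letters as the first match of Ifitm3. Ifitm1 held none. A gamma-activated site, searched as TTCNNNGAA, was found once among the members, in Ifitm3 at bases 13 to 21, where it overlaps the second ISRE match. Of all 32851 RefSeq promoter windows of this length, 3.44% held the ISRE core and 8.3% the gamma-activated site. RefSeq and GENCODE place the starts at different bases, and the other transcripts of Ifitm1 begin upstream of its window.

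The mature arms of miR-652 are shown because their seeds decide which transcripts a microRNA pairs with. The seed, bases 2 to 8, is in capitals, both are on the plus strand of chromosome X, and the sequences are from RefSeq (GRCm38.p6).
miR-652-3p: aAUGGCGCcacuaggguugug
miR-652-5p: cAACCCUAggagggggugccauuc
Sites that pair with the full seed were searched as GCGCCAT for the 3p arm and TAGGGTT for the 5p arm. Neither was found in any annotated transcript of Ifitm1, Ifitm2 or Ifitm3. Among 21877 protein-coding genes, 8.9% held the 3p site in at least 1 transcript and 9.98% the 5p site. The row of the microRNA gene itself, Mir652, held 5, 0, 0 and 0 counts in miR652-KD replicates 1 to 4, against 1, 0, 0 and 2 in NTC, too few to check the knockdown.

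Gene counts came to 14.68 to 19.89 M in miR652-KD libraries and 14.02 to 16.76 M in NTC libraries, where M is the SI prefix mega. Levels are counts per M of all gene counts of a library (CPM). Across the 14360 genes that passed the filter on low counts, edgeR's quasi-likelihood test called 6 genes at an adjusted p below 0.05, which is 0.0418% of those tested, 4 higher and 2 lower. It gave 860 genes an unadjusted p below 0.05. Kit, Procr, Hlf and Meis1 of the HSC list were counted in all libraries, while Cd48 of that list had 0 counts in miR652-KD replicate 3. The 16 genes of the list summed to 3513 to 3713 CPM in miR652-KD and 3408 to 4107 CPM in NTC. Within this sum Kit and Cd34 were lower in all miR652-KD libraries than in all NTC libraries, and Ly6a and Mllt3 were higher in all. NTC replicates 3 and 4 stood apart by RNA of some neutrophil genes, Ngp, Camp and S100a8 among them. Other granule genes were also high elsewhere. Mpo was at 1979, 182.4, 0.251 and 234.9 CPM in miR652-KD, against 3.36, 1095, 1005 and 1718 CPM in NTC. Elane was at 1920 CPM in miR652-KD replicate 1 and 982.6 CPM in NTC replicate 2, against 1311 and 2535 CPM in NTC replicates 3 and 4. The 20 neutrophil and monocyte markers summed to 11600.0 and 18280.0 CPM in NTC replicates 3 and 4. The sums were 1411 and 4663 CPM in NTC replicates 1 and 2 and 1450.0 to 6551 CPM in miR652-KD. The members' log2 fold changes and the list medians are therefore also given without NTC replicates 3 and 4.

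Ifitm3 was higher in every miR652-KD library than in every NTC library. Its level was 1481, 1428, 1523 and 1463 CPM in miR652-KD replicates 1 to 4, against 1078, 1044, 1171 and 1148 CPM in NTC replicates 1 to 4. The groups did not overlap, and the gap between the lowest miR652-KD library and the highest NTC library was wider than the range within either group. The mean was 1474 ± 39.5 CPM in miR652-KD and 1110.0 ± 59.3 CPM in NTC (SD, n = 4 each), a ratio of 1.33 and a log2 fold change of 0.41 (SE 0.07). In bulk RNA, a change in the share of cells that express a gene and a change in RNA per cell cannot be told apart.

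Ifitm1, whose protein sits mainly at the plasma membrane, was high in the same libraries but less evenly. Its level was 1615, 1552, 1873 and 1711 CPM in miR652-KD replicates 1 to 4, against 1145, 1255, 1574 and 1440.0 CPM in NTC replicates 1 to 4. The groups overlapped by a single pair, since NTC replicate 3 lay above miR652-KD replicate 2. The mean was 1688 ± 140.0 CPM in miR652-KD and 1353 ± 191 CPM in NTC (SD, n = 4 each), a ratio of 1.25 and a log2 fold change of 0.32 (SE 0.11).

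Ifitm2, whose protein is like IFITM3 found in endosomes, was the least abundant. Its level was 322.5, 345.4, 317.7 and 262.1 CPM in miR652-KD replicates 1 to 4, against 248.2, 234.6, 265.8 and 290.8 CPM in NTC replicates 1 to 4. Of the 4 miR652-KD libraries 3 lay above all NTC libraries, while replicate 4 lay below NTC replicates 3 and 4. The mean was 312 ± 35.4 CPM in miR652-KD and 260 ± 24.3 CPM in NTC (SD, n = 4 each), a ratio of 1.20 and a log2 fold change of 0.27 (SE 0.11).

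**Figure D1:**
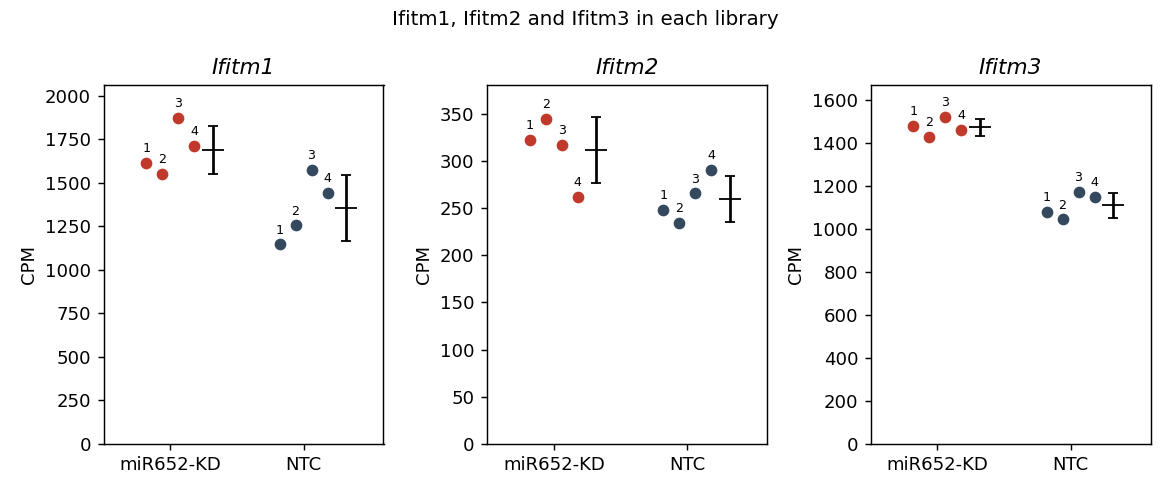
Level of Ifitm1, Ifitm2 and Ifitm3 in CPM (vertical axis, from 0) in each library of miR652-KD (red) and NTC (dark blue). Numbers beside points are replicates and bars are the mean and SD (n = 4); the groups of Ifitm3 do not overlap, and those of Ifitm1 and Ifitm2 do.

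The spread within a group differed among the members. The coefficient of variation of Ifitm3 was 2.68% in miR652-KD and 5.34% in NTC. That of Ifitm1 was 8.3% in miR652-KD and 14.1% in NTC, and that of Ifitm2 11.3% in miR652-KD and 9.35% in NTC. The smallest count of any member was 3288 reads, for Ifitm2 in NTC replicate 2. Smart-seq2 has no molecular identifiers, and amplified copies are counted as reads.

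None of the 3 members was called by edgeR in this comparison, and all 3 had a log2 fold change above 0, as did 49.5% of all genes tested. Ifitm3 was the member with separate groups, and 2.35% of tested genes (337) had all miR652-KD libraries above all NTC libraries, with 309 the other way round. These shares are printed as background only, since the members were chosen on this contrast. The calls themselves depended on the tool: DESeq2 called 61 genes (0.426% of those it gave an adjusted p) and limma-voom 7 (0.0487%). Ifitm3 was among those of each, while Ifitm1 and Ifitm2 were in neither. These calls are no test of Ifitm3 either, since its difference in these libraries led to the choice of the members.

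Together the members took 0.342%, 0.333%, 0.371% and 0.344% of all gene counts in miR652-KD replicates 1 to 4. In NTC replicates 1 to 4 they took 0.247%, 0.253%, 0.301% and 0.288%. Every miR652-KD library was above every NTC library, and the 95% Wilson intervals of these shares reach at most 0.003 percentage points to either side, for counting error alone. The mean share was 0.347% ± 0.0168 in miR652-KD and 0.272% ± 0.0263 in NTC (SD, n = 4 each), a ratio of 1.27.

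All 3 members were higher in NTC replicates 3 and 4, the libraries highest in Ngp, Camp and S100a8, than in NTC replicates 1 and 2. Without those libraries the log2 fold changes were larger, at 0.50 for Ifitm1, 0.38 for Ifitm2 and 0.48 for Ifitm3, and the ratio of the summed share was 1.39. NTC replicate 1 had the largest share of reads outside genes, at 16.94%. Leaving out only that library gave smaller values, at 0.24 for Ifitm1, 0.23 for Ifitm2, 0.39 for Ifitm3 and 1.24 for the ratio. The neutrophil genes that set NTC replicates 3 and 4 apart had another profile. S100a8, a calcium-binding protein of neutrophils, was at 36.4, 12.3, 17.0 and 4.33 CPM in miR652-KD, against 2.89, 23.3, 1547 and 1968 CPM in NTC. No library attribute such as a sequencing date or batch is given, so no within-batch value could be formed.

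Levels of different genes can be set beside each other only per length. Per kb of annotated exon, Ifitm3 stood at 2174 ± 58.2 CPM per kb in miR652-KD and 1638 ± 87.5 in NTC (SD, n = 4 each). Ifitm1 was at 1543 ± 128.0 CPM per kb in miR652-KD and 1237 ± 175 in NTC. Ifitm2 was at 476 ± 54.0 CPM per kb in miR652-KD and 397 ± 37.1 in NTC. The order Ifitm3, Ifitm1, Ifitm2 held in 8 of 8 libraries.

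The place of Ifitm1 in that order rests on the length assigned to it. On the 1094 bases of all its exons, Ifitm3 was 1.38 times Ifitm1 as a mean over the libraries. Taking the longest transcript of each gene, which is 882 bases for Ifitm1, lowered the ratio to 1.11, and in NTC replicate 3 Ifitm1 was then the higher, at 1785 CPM per kb against 1728 for Ifitm3. With the shortest Ifitm1 transcript of 560 bases the ratio was 0.704 and the order turned. Counts per gene do not say which transcript was made, so Ifitm1 and Ifitm3 cannot be ordered firmly.

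Ifitm2 may be counted short. Of its 655 exon bases, 268 (40.9%) are shared with Gm45717, a gene model on the same strand that joins exons of Ifitm2 and Ifitm5 and had 0 counts in every library. HTSeq sets aside as ambiguous a read that it cannot assign to a single gene. Per kb of the 387 unshared bases Ifitm2 stood at 806 ± 91.4 CPM in miR652-KD and 671 ± 62.7 CPM in NTC (SD, n = 4 each), still below both other members in each library. The mean ratio of Ifitm3 to Ifitm2 was then 2.59, against 4.38 on the full length. A read only partly in the shared bases may be set aside too, so fewer than 387 bases may have been countable. Ifitm2 would then stand higher per kb, by an amount that is unknown without the read length.

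**Figure D2:**
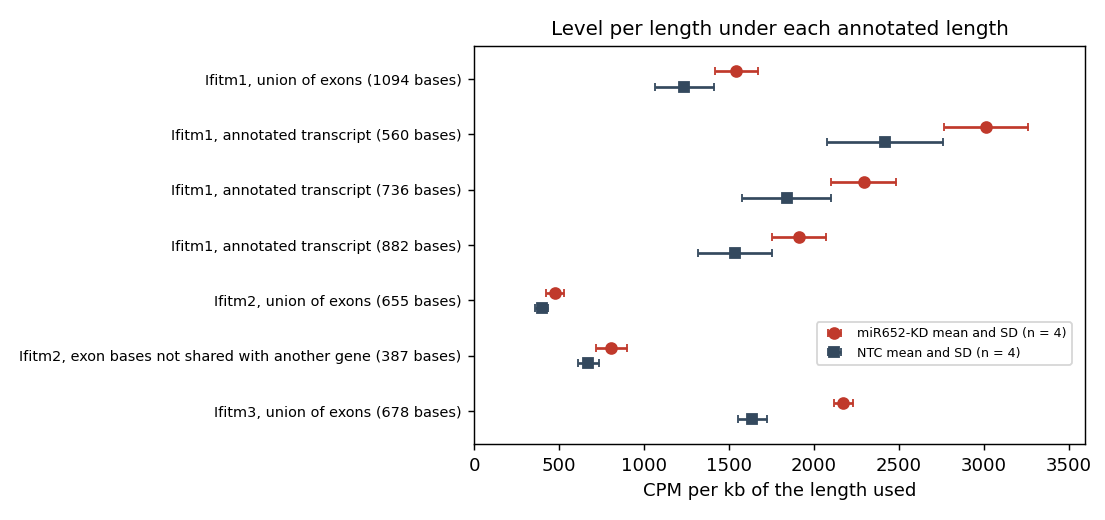
CPM per kb (horizontal axis, from 0) of each member under each length that the annotation allows, as mean and SD of 4 libraries for miR652-KD (red circles) and NTC (dark blue squares). Ifitm2 is lowest under both of its lengths, while Ifitm1 lies below or above Ifitm3 depending on the transcript assumed.

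Reads of near-identical sequence are a further limit, since the read length is not given. Of the 50-base stretches in transcripts of Ifitm2, 48.5% also occur in transcripts of another gene, among them Gm45717, several other gene models and Ifitm3. For Ifitm3 this was 10.0% and for Ifitm1 5.02%. At 100 bases it was 34.9% for Ifitm2 and 0% for both others, and no 100-base stretch was shared between members. Counts of Ifitm2 are the least certain of the 3.

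The make-up of the family pool was alike in both groups. Of the summed CPM per kb, Ifitm3 made up 51.9% ± 0.917 in miR652-KD and 50.2% ± 1.94 in NTC. Ifitm1 made up 36.8% ± 1.74 in miR652-KD and 37.7% ± 2.29 in NTC, and Ifitm2 11.4% ± 1.41 in miR652-KD and 12.1% ± 0.695 in NTC (SD, n = 4 each). The groups overlapped for each of these shares.

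By CPM, Ifitm1 ranked between 37 and 65 among all genes of a library, Ifitm3 between 51 and 92, and Ifitm2 between 386 and 651. Per kb, Ifitm3 ranked between 12 and 24, Ifitm1 between 19 and 31, and Ifitm2 between 80 and 129. For scale on that basis, B2m, the light chain of MHC class I, ranked 1 or 2, the cytoskeletal Actb 5, the elongation factor Eef1a1 between 6 and 10, and Tmsb4x, an actin-binding peptide, between 31 and 51. The ferritin chain Ftl1 ranked between 75 and 97, next to Ifitm2. Gapdh, a glycolytic enzyme often used as a standard, was counted at 57.1 CPM in miR652-KD and 53.9 CPM in NTC, far under all 3 members also per kb. Every library lists 0 reads as aligned to more than 1 place, so how many such reads were lost is unknown. The counted level of Gapdh may therefore be short and is no firm standard here.

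Differences of the other abundant genes were smaller. Log2 fold changes were -0.04 for Actb, -0.01 for Eef1a1, 0.02 for B2m, 0.10 for Tmsb4x, 0.11 for Ftl1, 0.09 for Tpt1, 0.09 for Gapdh and -0.19 for the nuclear RNA Malat1. Among the 59 genes at or above the mean CPM of Ifitm3, itself included, none had a larger log2 fold change, and their median was 0.10. Of these 59, 7 had all miR652-KD libraries above all NTC libraries and 4 had all below, beside 337 (2.35%) and 309 of all 14360 genes tested.

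Lower down the range of abundance, larger differences were found. At or above the mean level of Ifitm2 there were 493 genes with a median log2 fold change of 0.07, of which 49 exceeded Ifitm2 and 8 exceeded Ifitm3. Those 8, named after their values were seen, were Cd74 (1.21), H2-Aa (1.00) and H2-Ab1 (0.72) of the MHC class II pathway, the stem cell surface protein Ly6a (0.62), the transcription factor Mycn (0.46), the immunophilin Fkbp1a (0.44), the cyclin Ccnd2 (0.42) and the lipid carrier Apoe (0.42).

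**Figure D3:**
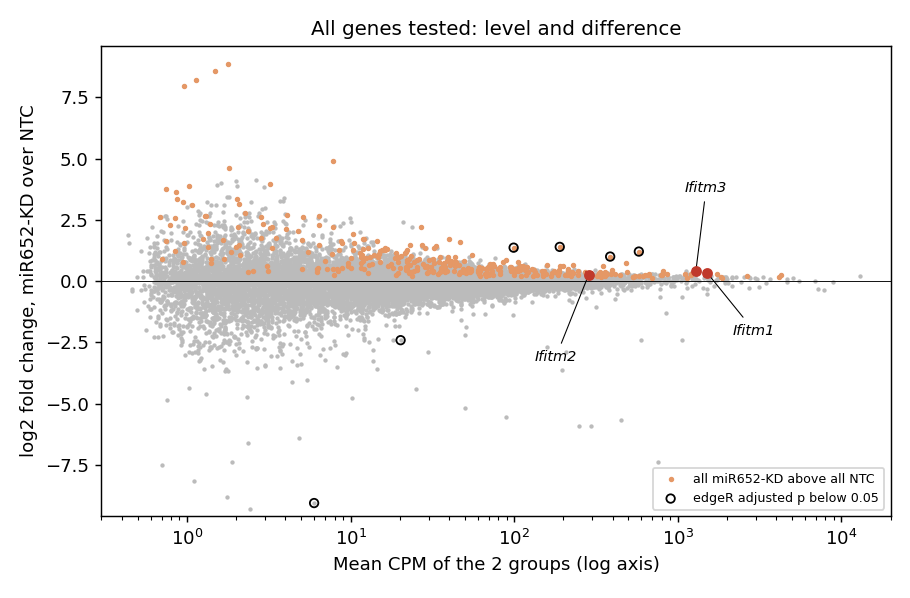
Log2 fold change of miR652-KD over NTC (vertical axis) against mean CPM of both groups (horizontal log axis) for the 14360 genes tested, with the members in red and their SE as bars, smaller than the points at this scale. Orange points are genes whose miR652-KD libraries all lie above all NTC libraries, and black rings the 6 genes called by edgeR; the members lie in the right-hand, abundant part of the plot where most differences are small.

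The neighbourhood of the cluster did not share the level of the members. On the side of Ifitm2 the next protein-coding genes are Ifitm5 at 4.5 kb, Pgghg at 7.2 kb, Nlrp6 at 25.6 kb and Cox8b at 54.4 kb. Pgghg, an enzyme that removes glucose from hydroxylysine-linked sugars of collagen, had 36.4 ± 16.4 CPM in miR652-KD and 42.0 ± 14.4 CPM in NTC, a log2 fold change of -0.21 (SE 0.36). Nlrp6, an inflammasome sensor, and Cox8b, a subunit of cytochrome c oxidase, had 0 counts in all libraries.

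On the side of Ifitm3 lie Ifitm6 at 4.9 kb, Gm17387 at 18.4 kb with 0 counts, B4galnt4 at 50.3 kb and Pkp3 at 67.4 kb. B4galnt4, a glycosyltransferase, was at 10.7 ± 2.78 CPM in miR652-KD and 11.7 ± 7.10 CPM in NTC, a log2 fold change of -0.13 (SE 0.48). Pkp3, a desmosome protein, was at 33.0 ± 9.53 CPM in miR652-KD and 34.6 ± 8.07 CPM in NTC, a log2 fold change of -0.06 (SE 0.28). None of the neighbours tested was called, at an edgeR adjusted p of 0.999 each.

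**Figure D4:**
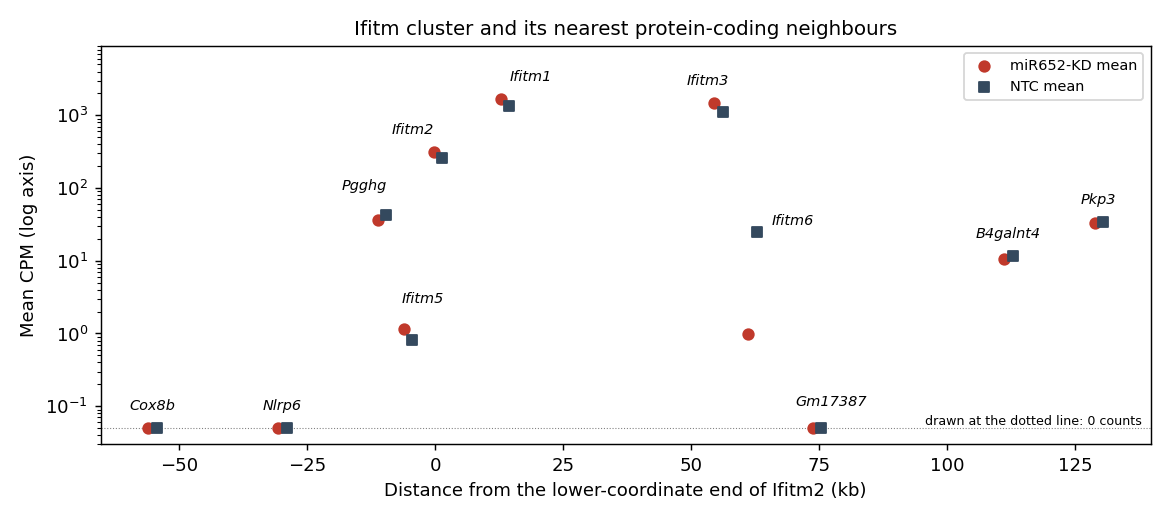
Mean CPM (vertical log axis) of the members and of the 4 nearest protein-coding genes on either side, in miR652-KD (red circles) and NTC (dark blue squares), by distance in kb from the lower-coordinate end of Ifitm2. Genes with 0 counts are drawn on the dotted line, and markers of the groups are set apart sideways so that both can be seen; the members stand above all neighbours.

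Other genes of the wider IFITM protein family, the dispanins, were low. Of 11 listed, 4 passed the filter and none was called by edgeR, with 3 above and 1 below a log2 fold change of 0 and a median of 0.48. Without NTC replicates 3 and 4 this became 1 above and 3 below, with a median of -0.25. Ifitm7 had 4.84, 20.4, 5.58 and 12.4 CPM in miR652-KD, against 15.4, 1.35, 6.38 and 9.70 CPM in NTC, with groups that overlapped throughout and a log2 fold change of 0.41 (SE 0.72).

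Ifitm5, known for its role in bone-forming cells, had 21, 2, 21 and 36 counts in miR652-KD, against 45, 0, 4 and 0 counts in NTC (log2 fold change 0.56, SE 1.64). Ifitm6 had 55, 2, 1 and 1 counts in miR652-KD, against 0, 0, 668 and 882 counts in NTC, and did not pass the filter. The NTC libraries with counts for Ifitm6 are the same replicates 3 and 4 that were highest in Ngp, Camp and S100a8. The others tested were Prrt1 at a log2 fold change of 0.55 (SE 1.38) and Tmem91 at -0.05 (SE 0.82). Prrt2 and Ifitm10 had at most 3 counts in any library, and Trarg1, Tmem233, Syndig1 and Syndig1l had 0 in all, which with 3 counts as the floor allows at most 0.214 CPM in the shallowest library.

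The interferon genes themselves were hardly seen. None of 21 interferon ligand genes passed the filter and 18 had 0 counts in all libraries, the type II interferon Ifng among them. Summed CPM over the 21 were 0, 1.76, 0 and 0 in miR652-KD, against 1.21, 1.86, 0.179 and 2.12 in NTC. Ligands made by other cells are outside this measurement.

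Of 6 interferon receptor genes, 5 passed the filter and none was called, with 1 above and 4 below 0 and a median log2 fold change of -0.21 (-0.19 without NTC replicates 3 and 4). Ifngr2, the signalling chain of the type II receptor, had 37.3 ± 8.58 CPM in miR652-KD and 25.03 ± 3.22 CPM in NTC, a log2 fold change of 0.58 (SE 0.24, edgeR adjusted p = 0.832). Il10rb, a chain shared by the lambda interferon and IL-10 receptors, had 29.6 ± 8.89 CPM in miR652-KD and 47.8 ± 8.01 CPM in NTC, a log2 fold change of -0.68 (SE 0.27, edgeR adjusted p = 0.811). The groups of both genes were separate, in opposite directions. The type I chain Ifnar2 was at -0.26 (SE 0.17).

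Kinases and transcription factors that carry the interferon signal numbered 13, 8 of them above 0 and 5 below it (median 0.11), and none was called; without NTC replicates 3 and 4 the split was 7 and 6 and the median 0.22. Irf8, a factor of monocytes and dendritic cells that also answers interferon gamma, had the smallest p. It was at 55.5, 29.3, 7.64 and 64.0 CPM in miR652-KD, against 8.47, 10.6, 12.9 and 1.71 CPM in NTC, so that 3 of 4 miR652-KD libraries lay above all NTC libraries (log2 fold change 2.22, SE 0.71, edgeR adjusted p = 0.779). Irf3, an inducer of type I interferon, had separate groups at 120.0 ± 19.7 CPM in miR652-KD and 90.6 ± 5.40 CPM in NTC (log2 fold change 0.41, SE 0.14).

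Inhibitors of interferon signalling numbered 10, 8 of them above 0 and 2 below it (median 0.18), and none was called; without NTC replicates 3 and 4 the median was 0.09. Pias1, an inhibitor of activated STAT proteins, was at 111.9 ± 15.9 CPM in miR652-KD and 139.2 ± 10.8 CPM in NTC, with separate groups and a log2 fold change of -0.31 (SE 0.13). The phosphatase genes Ptpn11 and Ptpn1 were at 0.64 (SE 0.30) and 0.21 (SE 0.14).

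Interferon-stimulated genes other than the members were mostly above 0, by small amounts. Of 61 listed, 59 passed the filter and none was called, 40 with a log2 fold change above 0 and 19 below, and a median of 0.12 against -0.0043 over all genes tested. The fit without NTC replicates 3 and 4 put 42 above 0 and 17 below it (median 0.22). Of the 59, 6 had all miR652-KD libraries above all NTC libraries and none had all below. Over all 14360 genes tested, 337 (2.35%) had all above and 309 all below. The list was drawn up with earlier results of these data known. The summed level of the list was 8079, 8045, 7727 and 7827 CPM in miR652-KD, against 6920, 6631, 7449 and 7054 CPM in NTC, so the sums did not overlap either. Abundant genes weigh most in such a sum, such as Ly6e at a mean of 1035 CPM in miR652-KD and 907 CPM in NTC.

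The 3 of smallest p were Ly6a, Tgtp2 and Psmb8. Ly6a, the stem cell antigen Sca-1 that is also on the list of HSC genes, had 489.7, 410.2, 316.0 and 482.7 CPM in miR652-KD, against 239.7, 282.4, 295.9 and 293.1 CPM in NTC. Its groups were separate, with miR652-KD replicate 3 closest to NTC, and the log2 fold change was 0.62 (SE 0.15, edgeR adjusted p = 0.598). Tgtp2, an interferon-inducible GTPase, was at 279.5 ± 11.4 CPM in miR652-KD and 179 ± 45.6 CPM in NTC (log2 fold change 0.64, SE 0.16, edgeR adjusted p = 0.598). Psmb8, a catalytic subunit of the immunoproteasome, was at 456 ± 27.4 CPM in miR652-KD and 373 ± 33.3 CPM in NTC (log2 fold change 0.30, SE 0.09, edgeR adjusted p = 0.764). The others with separate groups, named for that after their values were seen, were the RNA-binding Ifit3, Uba7, which activates the ubiquitin-like ISG15, and Samd9l.

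The level of classical interferon-stimulated genes, also named after their values were seen, varied widely. Bst2, which tethers budding virus, was at 141 ± 6.10 CPM in miR652-KD and 117 ± 17.6 CPM in NTC (log2 fold change 0.28, SE 0.13). Ifi27 was at 214 ± 33.0 CPM in miR652-KD and 201 ± 22.7 CPM in NTC (0.10, SE 0.13), and Oasl2 at 103 ± 30.8 CPM in miR652-KD and 120 ± 22.5 CPM in NTC (-0.21, SE 0.24). The RNA-binding Ifit1 was at 33.6 ± 16.2 CPM in miR652-KD and 23.9 ± 12.2 CPM in NTC (0.49, SE 0.50), and Rsad2 at 41.8 ± 11.2 CPM in miR652-KD and 47.9 ± 11.7 CPM in NTC (-0.20, SE 0.26). Lower were Isg15, the ubiquitin-like modifier, at 6.57 ± 1.28 CPM in miR652-KD and 8.86 ± 2.43 CPM in NTC (-0.43, SE 0.44), and Mx1, an antiviral GTPase, at 0.958 ± 0.802 CPM in miR652-KD and 3.85 ± 5.56 CPM in NTC (-1.97, SE 1.65). None of these 7 genes was called.

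The proteins that bind or modify IFITM proteins, known mainly from work on the human proteins, stood on both sides of 0. Of 20 genes, 19 passed the filter and none was called, with 9 above and 10 below 0 and a median of -0.01. Without NTC replicates 3 and 4 there were 12 above and 7 below, at a median of 0.06. Ap2s1, a subunit of the adaptor complex that takes IFITM3 into endocytic vesicles, was at 239 ± 28.5 CPM in miR652-KD and 187 ± 9.86 CPM in NTC, with separate groups (log2 fold change 0.36, SE 0.11, edgeR adjusted p = 0.764). Another subunit of that complex, Ap2b1, was at -0.49 (SE 0.27). Cd81, a tetraspanin that associates with IFITM1, was at 695 ± 46.5 CPM in miR652-KD and 577 ± 64.6 CPM in NTC, also with separate groups (log2 fold change 0.27, SE 0.11, edgeR adjusted p = 0.803). Nedd4, a ubiquitin ligase for IFITM3, and the palmitoyltransferase Zdhhc20 were at 0.04 (SE 0.09) and 0.03 (SE 0.19).

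**Figure D5:**
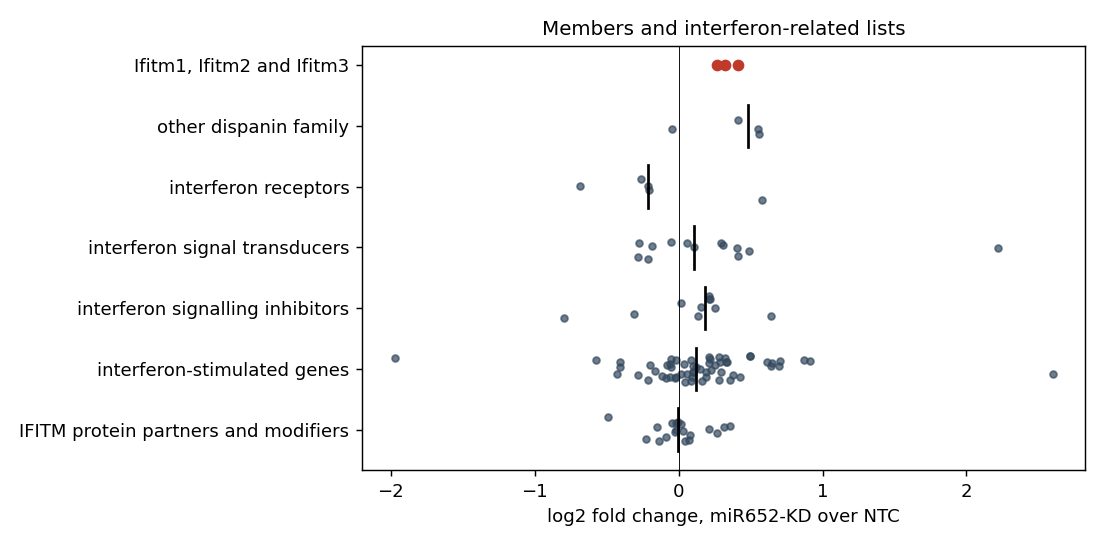
Log2 fold change of miR652-KD over NTC (horizontal axis) for the members (red, top) and for each tested gene of the 6 related lists (dark blue), spread vertically at random within a list, with the list median as a bar. The medians of the lists run from -0.21 for the receptors to 0.48 for the 4 other dispanins tested, and the interferon-stimulated genes lie at 0.12.

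At an unadjusted p below 0.05, edgeR gave 10 of the 59 interferon-stimulated genes, 3 of the 13 signal carriers, 2 of the 5 receptors, 1 of the 10 inhibitors, 2 of the 19 partners and 0 of the 4 other dispanins, beside 860 of all 14360 genes. DESeq2 called Ly6a and Tgtp2 among the interferon-stimulated genes and 0 in each of the other lists just named, and limma-voom called 0 in all of them.

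Among the lists of markers of other cell types, only that of macrophages and dendritic cells had genes called by edgeR. Of 14 macrophage and dendritic cell markers 7 passed the filter, and edgeR called 3 as higher in miR652-KD: H2-Aa at 1.00 (SE 0.11, adjusted p = 0.0241), H2-Eb1 at 1.40 (SE 0.16, adjusted p = 0.0241) and Cd74 at 1.21 (SE 0.16, adjusted p = 0.0476), all of the MHC class II pathway. The 14 markers summed to 1993 to 2472 CPM in miR652-KD and 849 to 1294 CPM in NTC. Most of that sum came from MHC class II pathway genes, so it largely repeats their difference. Mean CPM of H2-Aa, H2-Ab1, H2-Eb1 and Cd74 were 514.8, 597.5, 275.1 and 806.3 in miR652-KD, against 258.3, 363.2, 105.1 and 351.4 in NTC. The median of the 7 was 0.72, with 5 above 0 and 2 below, and without NTC replicates 3 and 4 it was 1.34, with all 7 above 0. The complement genes of macrophages were found at low levels in both groups. C1qa ran from 2.21 to 18.3 CPM in miR652-KD and from 0 to 19.9 CPM in NTC. C1qb was at 15.9, 4.62, 13.5 and 15.99 CPM in miR652-KD, against 0, 12.5, 19.0 and 41.0 CPM in NTC, and C1qc ran from 0 to 12.4 CPM in miR652-KD and from 0 to 25.4 CPM in NTC. The groups overlapped for all 3 of them, and NTC replicate 1 had 0 counts for each. The markers that did not pass the filter were lower: Xcr1 had 0 counts in all libraries, Mertk, Siglech, Cd209a and Itgax at most 1.21 CPM in any, and Adgre1 at most 3.83 CPM. Csf1r was at 8.18, 3.16, 0.352 and 1.15 CPM in miR652-KD and had 0 counts in all NTC libraries. What part such cells or the MHC class II difference have in the Ifitm difference was not tested.

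The erythroid and the neutrophil lists lay mostly or wholly below 0. Erythroid markers summed to 1816 to 4586 CPM in miR652-KD and 4204 to 7946 CPM in NTC, with 2 of 12 genes above 0 and 10 below and a median of -2.12. Without NTC replicates 3 and 4 they had 1 above and 11 below and a median of -2.45. Car2 alone was at 1760, 2147, 1889 and 2216 CPM in miR652-KD, most of the erythroid sum in replicates 1 to 3. In NTC it was at 1783, 2169, 1974 and 1298 CPM. The globin gene Hba-a1 was at 2.18, 37.2, 65.8 and 1239 CPM in miR652-KD, against 1013, 2575, 1247 and 2298 CPM in NTC. Alas2, Hbb-bt and Hba-a2 had the smallest p, and all miR652-KD libraries were below all NTC libraries for Alas2 and Hbb-bt. Each of the 13 neutrophil and monocyte genes tested lay below 0; their median of -1.31 became 0.14 without NTC replicates 3 and 4 (8 above 0, 5 below), led by Csf3r, S100a9 and S100a8. Lymphoid markers summed to 169 to 324 CPM in miR652-KD and 204 to 535 CPM in NTC, led by Nkg7, Vpreb1 and Cd79b, with a median of -0.47 (-0.40 without NTC replicates 3 and 4). Megakaryocyte markers summed to 834 to 971 CPM in miR652-KD and 799 to 1141 CPM in NTC, led by Vwf, Itga2b and Pf4. Endothelial and stromal ones summed to 191 to 239 CPM in miR652-KD and 199 to 396 CPM in NTC. Pdgfrb, Emcn and Pecam1 had the smallest p among them. Most of that sum came from Tie1, Emcn and Pecam1, with Tie1 at a mean of 130.5 CPM in miR652-KD and 142.9 CPM in NTC. Cdh5 and Lepr had 0 counts in all libraries, and Col1a1 had 3 counts in NTC replicate 3 and 0 in all others. Of the HSC list the smallest p were those of Cd34 (-0.71, SE 0.11), Ly6a and Mllt3 (0.60, SE 0.20). Medians were 0.18 for megakaryocyte, -0.63 for endothelial and stromal and -0.03 for HSC genes, and without NTC replicates 3 and 4 they were 0.23, -0.33 and 0.04. None of the lists after the macrophage and dendritic one had a gene called by edgeR. Unadjusted p below 0.05 were found for 2 erythroid, 5 neutrophil and monocyte, 1 lymphoid, 1 megakaryocyte, 1 endothelial and 6 HSC genes. DESeq2 called Alas2, Csf3r, S100a8, S100a9, Ngp, Ly6a and Cd34 among them, and limma-voom called Cd34.

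Genes whose level ran most like that of a member were found by Pearson's r of log2 CPM over the 8 libraries, among 10131 protein-coding genes of at least 5 CPM. For Ifitm3 they were the SUMO protease Senp1 (r 0.976), H2-Aa (0.956), the MHC class II invariant chain Cd74 (0.955), Erg28 (0.951) and the DNA replication factor Gins3 (0.943). The groups of Ifitm3 are separate, and a gene with the same split also reaches a high r. Senp1, H2-Aa and Cd74 are genes that edgeR called higher in miR652-KD, and 14 genes reached an r of 0.9.

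For Ifitm1 the most alike were Elp4 (r 0.974), the centrosome protein Cep350 (0.974), Rps19bp1 (0.966), the mitotic kinase Plk1 (0.960) and the zinc finger gene Zfp74 (0.947), with 26 genes at 0.9 or above. For Ifitm2 they were Ccdc28b (0.941), Rab11fip2 (0.937), Zfp992 (0.937), Gstz1 (0.932) and Amacr (0.930), with 14 genes at 0.9 or above. The members were less alike among themselves: r was 0.873 between Ifitm1 and Ifitm3, 0.758 between Ifitm2 and Ifitm3, and 0.635 between Ifitm1 and Ifitm2. Among genes by likeness to Ifitm1, Ifitm3 came 46th and Ifitm2 719th. The points of every pair share their 8 libraries, with their depth and group split, and the values are descriptions with no p.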

How the data were processed

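The values deposited by the authors are raw read counts for each gene. The submitters' processing notes name HISAT2 2.1.0 as well as HTSeq 0.11.2, DESeq2 and build mm10, with no annotation release, strand setting or read length. A file has 55487 gene lines and 5 summary lines, which were left out. Identifiers were matched to GENCODE M21 without version (55394 found). The summary lines put 9.69% to 16.94% of reads outside genes and 8.94% to 12.28% as ambiguous. The 16.94% and the 8.94% were both of NTC replicate 1, and the nearest to them were the 11.35% and 10.59% of NTC replicate 4.

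CPM is the count per M (SI prefix mega) gene counts. Log2 fold changes (miR652-KD over NTC) and SE come from edgeR 4.0.16 (R 4.3.3; TMM scaling, filterByExpr at a minimum count of 10, robust quasi-likelihood F test, Benjamini-Hochberg over 14360 genes, called below 0.05). DESeq2 1.42.0, limma-voom (limma 3.58.1), other scalings and filters, the replicate number as a block and left-out libraries were alternatives. The limma-voom fit gave each library an estimated quality weight. Log2 CPM for likeness used a prior count of 2. The members and gene lists were chosen with earlier results of these data known. From each list, called genes or else the 3 of smallest p are named, with exceptions marked; 1 gene is not reported here.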

Additional observations from a re-analysis of the deposited data

Results flagged for a closer look

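In 24 groups of 4 libraries, taken from the levels of family genes and neighbours and from sums and ratios of the members, the highest and lowest library were set against the others with Dixon's criterion at the 95% level, which flags about 5% of groups by chance. Of these, 2 were past it, both of genes near the limit of detection in most libraries of the group flagged, and none was a member. Ifitm6 had 3.747 CPM in miR652-KD replicate 1, against 0.0503 to 0.122 CPM in the other miR652-KD libraries (gap over range 0.981). Ifitm5 had 3.027 CPM in NTC replicate 1, against 0 to 0.239 CPM in the other NTC libraries (gap over range 0.921).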

How the results depend on the processing

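Leaving out each library in turn gave 0 calls by edgeR each time (789 to 992 genes at an unadjusted p below 0.05; other tools were not run so), and Ifitm log2 fold changes of 0.24 to 0.40 (Ifitm1), 0.22 to 0.34 (Ifitm2) and 0.39 to 0.44 (Ifitm3), a summed share ratio of 1.24 to 1.32, and ratios per kb of 1.36 to 1.40 (Ifitm3 over Ifitm1) and 4.23 to 4.46 (Ifitm3 over Ifitm2). Against 6 calls, DESeq2 made 61 (25 higher, 36 lower), and the fit without NTC replicates 3 and 4 made 0, with 884 genes at an unadjusted p below 0.05 in edgeR; fewer libraries entered that fit. Without them Ifitm1 was at 0.50, Ifitm3 at 0.48 and the summed share ratio at 1.39, the last added after seeing the data. Lengths of the longest and the shortest Ifitm1 transcript gave Ifitm3 over Ifitm1 as 1.11 and 0.704, and unshared bases gave Ifitm3 over Ifitm2 as 2.59; the shortest and the unshared lengths were added after seeing the data. Other scalings and filters and limma-voom gave 5 to 7 calls, and the direction of all 3 members held under every setting run.

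Equal replicate numbers did not pair the libraries: same-number correlations of deviations were -0.033, -0.014, -0.032 and -0.010, and no miR652-KD library correlated best with its own number. With the replicate number as a block edgeR made 0 calls (733 genes at an unadjusted p below 0.05; limma-voom and DESeq2 were not run with it), and the members were at 0.33, 0.27 and 0.41. Depth bounds genes of few counts such as Ifitm5, not the members. Ifitm6 had few counts or none in most libraries but 668 and 882 counts in NTC replicates 3 and 4.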
